A study of Rattus norvegicus with 6 samples.

Results

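The 10 genes described here are markers of Kupffer cells, the macrophages that live in the sinusoids of the liver, and of macrophages in general: Vsig4, Clec4f, Marco, Cd163, Cd68, Trem2, Csf1r, Adgre1, Cd5l and Timd4. They were taken as a named list, and their probes were found through the transcript accession of each array probe, matched to current rat gene symbols. Of the 10 genes, 9 had at least 1 probe matched in this way, with 14 probes in all, out of 15284 genes and 61573 probes on the array. Timd4, a phosphatidylserine receptor of resident macrophages, had no probe matched by accession and was not analysed here.

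Liver RNA came from 6 male Sprague-Dawley rats, 5 weeks old at purchase, with 1 single-colour Agilent array per animal. The arrays BBMP 1 to BBMP 3 were from rats dosed with the brominated flame retardant 2,2-bis(bromomethyl)-1,3-propanediol, or BBMP, at 1000 mg/kg/day. The other 3, corn oil 1 to corn oil 3, were from rats given corn oil, the vehicle. The labels give the time both as 28 days and as 9 weeks. The BBMP arrays shared 1 slide and 1 scan, and the corn oil arrays shared another slide and scan, so treatment, slide and scan cannot be told apart in any difference between the groups.

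Kupffer cells clear particles, complement-coated microbes, senescent blood cells and modified lipoproteins from portal blood, and they depend on signalling through the receptor CSF1R for survival. Several of the markers are the clearance receptors themselves, so their transcripts serve both as a measure of the cells and as a measure of what the cells are equipped to bind. In RNA from whole liver, fewer cells of a type and less RNA per cell cannot be told apart.

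All 14 probes were well above background on all 6 arrays and 0 were saturated. Values below are log2 signals relative to the 75th percentile of each array, so that 0 is the 75th percentile and 1 unit is a doubling. On the arrays as a whole, 60.1% to 64.4% of probes were well above background. The 8 hepatocyte genes used as a check of the tissue, among them Alb and Ttr, were all measurable.

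After BBMP, 8 of the 9 measured markers had a higher group mean than in corn oil livers, and Trem2 had a lower one. The median difference over the 9 genes was 0.34 on the log2 scale, against -0.01 over all 28111 features tested, of which 47.5% had a higher mean after BBMP. The groups overlapped for 9 of 9 markers, while 17.8% of all features had groups that did not overlap. The differences of Vsig4 (0.55), Clec4f (0.34) and Trem2 (-0.41) were larger in size than their residual SD between animals of a group, at 0.40, 0.29 and 0.27 for the 3 genes in that order, and those of the other 6 markers were smaller. With limma and Benjamini-Hochberg adjustment over all features, 0 of 9 markers passed an adjusted p of 0.05, against 0.00711% of all features, with adjusted p from 0.502 to 0.836. At an unadjusted p under 0.05 the number was also 0 of 9, against 10.8% of all features. These p-values do not show that the groups were alike, and the standard errors of the differences ran from 0.19 to 0.39.

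The direction of the median did not depend on 1 animal, but its size did. It was 0.10 without BBMP 3, 0.19 without corn oil 1, 0.23 without corn oil 2, 0.57 without BBMP 2 and 0.64 without corn oil 3.

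**Figure D1:**
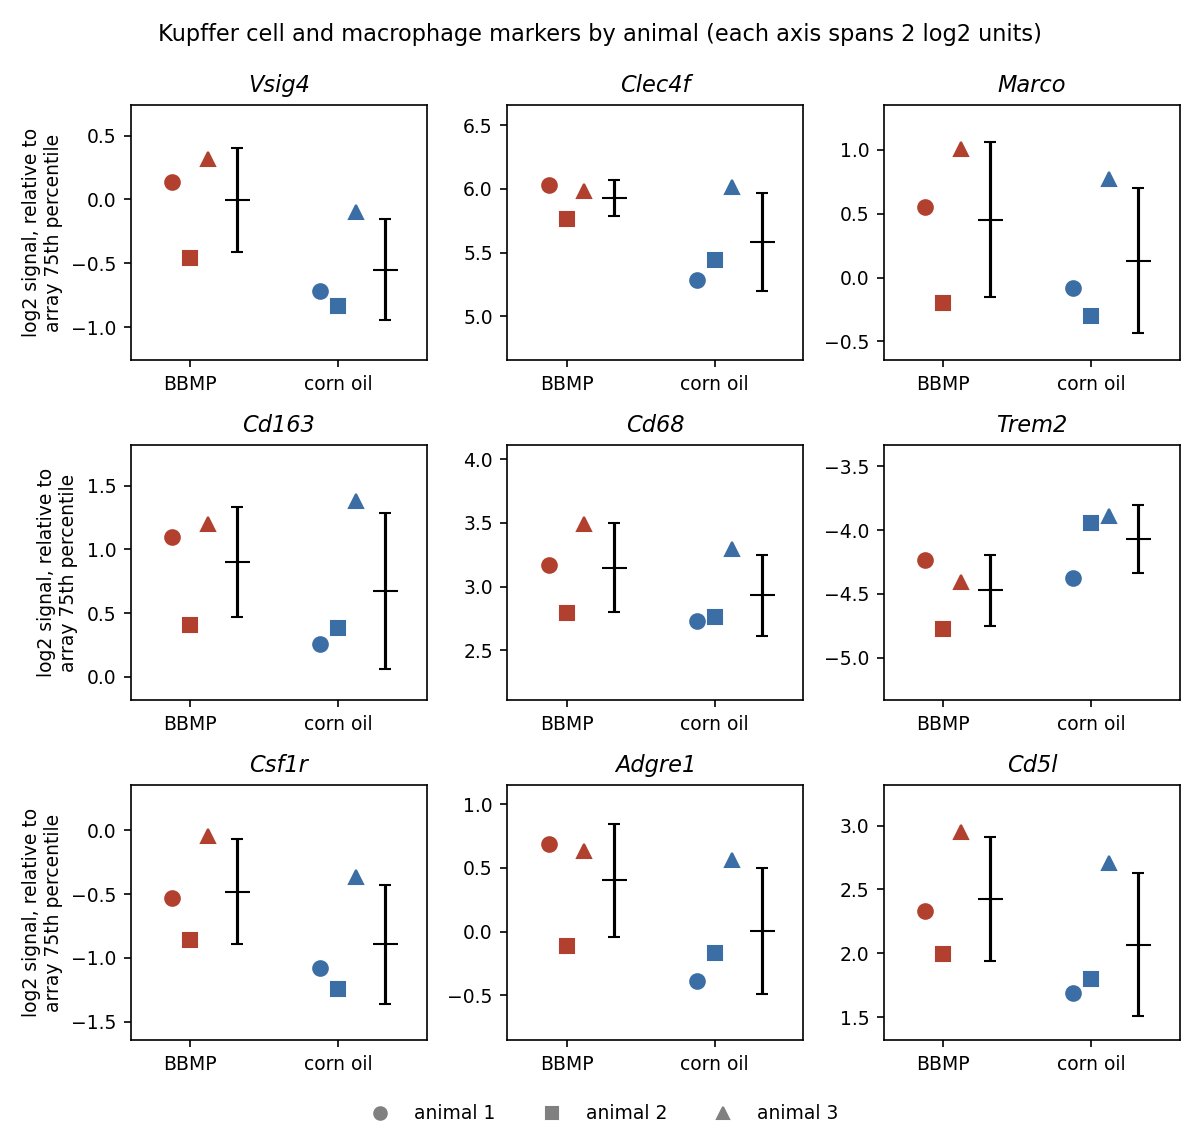
Log2 signal of the 9 measured markers in each liver, BBMP (red, left) and corn oil (blue, right), relative to the array's 75th percentile; symbols mark the animal number, which does not pair animals across groups, and black bars give the mean and SD of 3 animals. In 8 panels BBMP 2 and corn oil 1 and 2 lie low and the other animals high, while in the Trem2 panel corn oil 2 lies high.

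Vsig4 encodes a receptor of the immunoglobulin superfamily that binds complement C3 fragments and is carried by resident tissue macrophages. Its log2 signal was 0.14, -0.46 and 0.32 in BBMP livers, against -0.72, -0.83 and -0.10 in corn oil livers. Corn oil 3 lay above BBMP 2, so the groups overlapped. The difference was 0.55 ± 0.27 (SE, 3 animals per group), or 1.46-fold, with a 95% interval from -0.11 to 1.20 (limma adjusted p = 0.515).

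Clec4f encodes a galactose-binding C-type lectin that in rodents is found on Kupffer cells. It read 6.03, 5.77 and 5.99 in BBMP livers, against 5.29, 5.45 and 6.02 in corn oil livers. The BBMP livers lay within 0.26 of each other and the corn oil livers within 0.73, with corn oil 3 level with the BBMP group. The difference was 0.34 ± 0.20 (limma adjusted p = 0.570, 95% interval -0.15 to 0.83).

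Adgre1 encodes the adhesion receptor recognised by a widely used mouse macrophage antibody. It stood at 0.69, -0.11 and 0.63 in BBMP livers, against -0.39, -0.17 and 0.56 in corn oil livers. BBMP 2 was close to corn oil 2, and corn oil 3 was close to BBMP 1 and BBMP 3. The difference was 0.40 ± 0.32 (limma adjusted p = 0.671).

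Marco, Cd163 and Cd5l belong to the scavenger receptor cysteine-rich family. Marco, a membrane receptor that binds bacteria and particles, had log2 signals of 0.56, -0.20 and 1.00 in BBMP livers, against -0.08, -0.30 and 0.77 in corn oil livers. The spread inside each group, 1.20 in BBMP and 1.07 in corn oil livers, exceeded the difference of 0.32 ± 0.39 (limma adjusted p = 0.781). Cd163, which takes up haemoglobin bound to haptoglobin, had 1.10, 0.41 and 1.20 in BBMP livers, against 0.26, 0.39 and 1.38 in corn oil livers. Here the single highest value belonged to a corn oil liver, and the difference was 0.23 ± 0.35 (limma adjusted p = 0.836). Cd5l, a secreted protein of tissue macrophages, had 2.33, 2.00 and 2.95 in BBMP livers, against 1.69, 1.80 and 2.71 in corn oil livers. Each group again held 1 value well above its lowest, and the difference was 0.36 ± 0.35 (limma adjusted p = 0.730).

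Cd68 encodes a glycoprotein of macrophage lysosomes and is not restricted to Kupffer cells. Its signal was 3.17, 2.79 and 3.49 in BBMP livers, against 2.73, 2.76 and 3.30 in corn oil livers. BBMP 2 lay just above corn oil 1 and corn oil 2, and the difference was 0.22 ± 0.23 (limma adjusted p = 0.753). Csf1r, the receptor for the growth factors CSF1 and IL34, had -0.53, -0.86 and -0.05 in BBMP livers, against -1.08, -1.24 and -0.37 in corn oil livers. Corn oil 3 was above BBMP 1 and BBMP 2, and the difference was 0.41 ± 0.29 (limma adjusted p = 0.631).

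Trem2 encodes a lipid-sensing receptor that signals through the adaptor TYROBP and marks lipid-handling macrophages. It read close to background, at -4.23, -4.78 and -4.41 in BBMP livers, against -4.37, -3.94 and -3.89 in corn oil livers. BBMP 1 lay above corn oil 1, and the other BBMP livers lay below all corn oil livers. The difference was -0.41 ± 0.19 (limma adjusted p = 0.502, 95% interval -0.87 to 0.06). In scanner units the Trem2 probe read 27.9, 17.7 and 26.9 in BBMP livers and 21.7, 29.7 and 35.4 in corn oil livers. These values are near the limit of measurement, since the weakest probe that was still well above background read -5.37 to -5.23 on BBMP arrays and -5.40 to -4.89 on corn oil arrays.

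Cd163, Cd68, Csf1r and Cd5l had more than 1 probe, and for Cd163 and Csf1r the probes differed in what they showed. The brightest Cd163 probe, A_64_P053012, gave the difference of 0.23 above. A second probe, A_43_P17457, read -1.48, -2.41 and -1.56 in BBMP livers, against -2.62, -2.86 and -2.02 in corn oil livers, with a difference of 0.68 ± 0.32 (limma adjusted p = 0.511 over 37643 probes). The other, A_43_P18105, read -3.28, -3.46 and -3.11 in BBMP livers, against -3.76, -3.70 and -4.02 in corn oil livers. It was the only 1 of the 14 probes whose groups did not overlap, against 17.4% of all probes, and the BBMP livers lay above. Among the 28111 features, 8.25% had all BBMP livers above all corn oil livers. This probe was also the only 1 with an unadjusted p under 0.05, against 10.4% of all probes. Its difference was 0.54 ± 0.14 (limma adjusted p = 0.415). Corn oil 3, the highest liver with the brightest Cd163 probe, was the lowest with this one.

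For Csf1r the second probe, A_64_P351634, gave -1.79, -2.05 and -1.67 in BBMP livers, against -1.89, -1.82 and -1.72 in corn oil livers. That is a difference of -0.03 ± 0.13 (limma adjusted p = 0.946), where the brighter probe gave 0.41. All 6 values of the second probe lay within 0.38, while those of the brighter probe spanned 1.19. The probe pairs of Cd68 (0.22 and 0.23) and of Cd5l (0.36 and 0.48) gave like differences. Of the 14 probes 12 had a higher mean after BBMP, 0 passed an adjusted p of 0.05 when every probe was tested, and 0.00531% of all probes did.

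**Figure D2:**
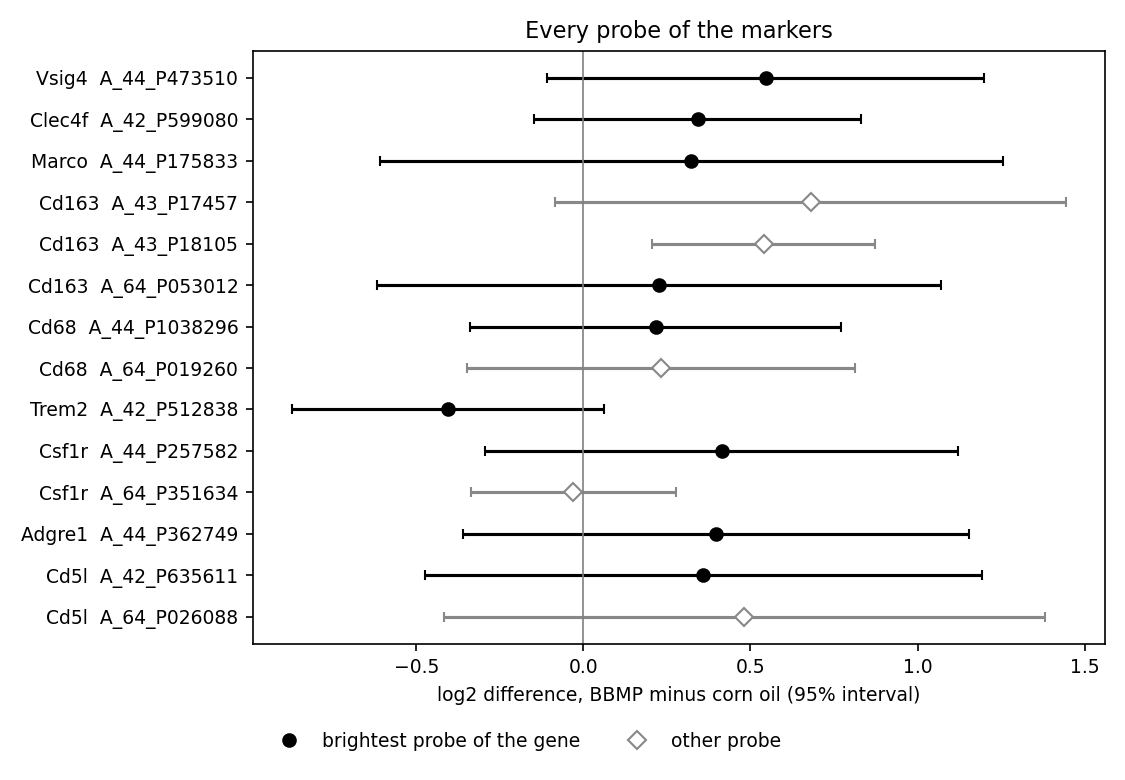
Log2 difference between BBMP and corn oil livers for each of the 14 probes (points) with its 95% interval from limma (bars); filled circles are the brightest probe of a gene and open diamonds its other probes. The interval of the Cd163 probe A_43_P18105, 0.21 to 0.87, is the only one that does not include 0, before any adjustment over probes.

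The markers differed more between animals of 1 group than most genes did. The residual SD within groups was 0.27 to 0.59 for the 9 markers, with a median of 0.44, against a median of 0.18 over all features, of which 10.3% reached the markers' median. For Marco 95.3% of features had a smaller residual SD, for Cd163 93.8% and for Cd5l 93.6%. At the lower end the shares were 74.5% for Clec4f and 71.6% for Trem2.

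This spread had the same shape in nearly all of them. BBMP 2 was the lowest BBMP liver for 9 of 9 markers, and corn oil 3 was the highest corn oil liver for 9 of 9. BBMP 1, BBMP 3 and corn oil 3 were the 3 highest livers for 8 of 9 markers, where 4.18% of all features showed these same 3 on top. These 3 livers were picked out from the markers' own values, so a high count among the markers follows in part from that choice. The comparison is a description and not a test. The exception was Trem2, for which corn oil 3 and corn oil 2 were highest. Centred on each gene's mean and averaged over the 9 markers, the log2 level was 0.24, -0.28 and 0.45 in BBMP 1, 2 and 3, against -0.42, -0.35 and 0.37 in corn oil 1, 2 and 3. Both groups thus held animals with high and animals with low marker levels, and the gap between BBMP 3 and BBMP 2 was wider than the gap between the group means.

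The brightness of the arrays moved with this profile. The 75th percentile of the signal was 524.7, 486.6 and 570.4 intensity units on BBMP 1, 2 and 3, against 450.1, 456.3 and 523.2 on corn oil 1, 2 and 3, so the 3 arrays with the highest marker levels were also the 3 brightest. Each array was scaled to that percentile before the comparison, and with quantile normalisation in its place the median difference of the markers was 0.33. What part the brightness has in the marker profile was not tested.

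**Figure D3:**
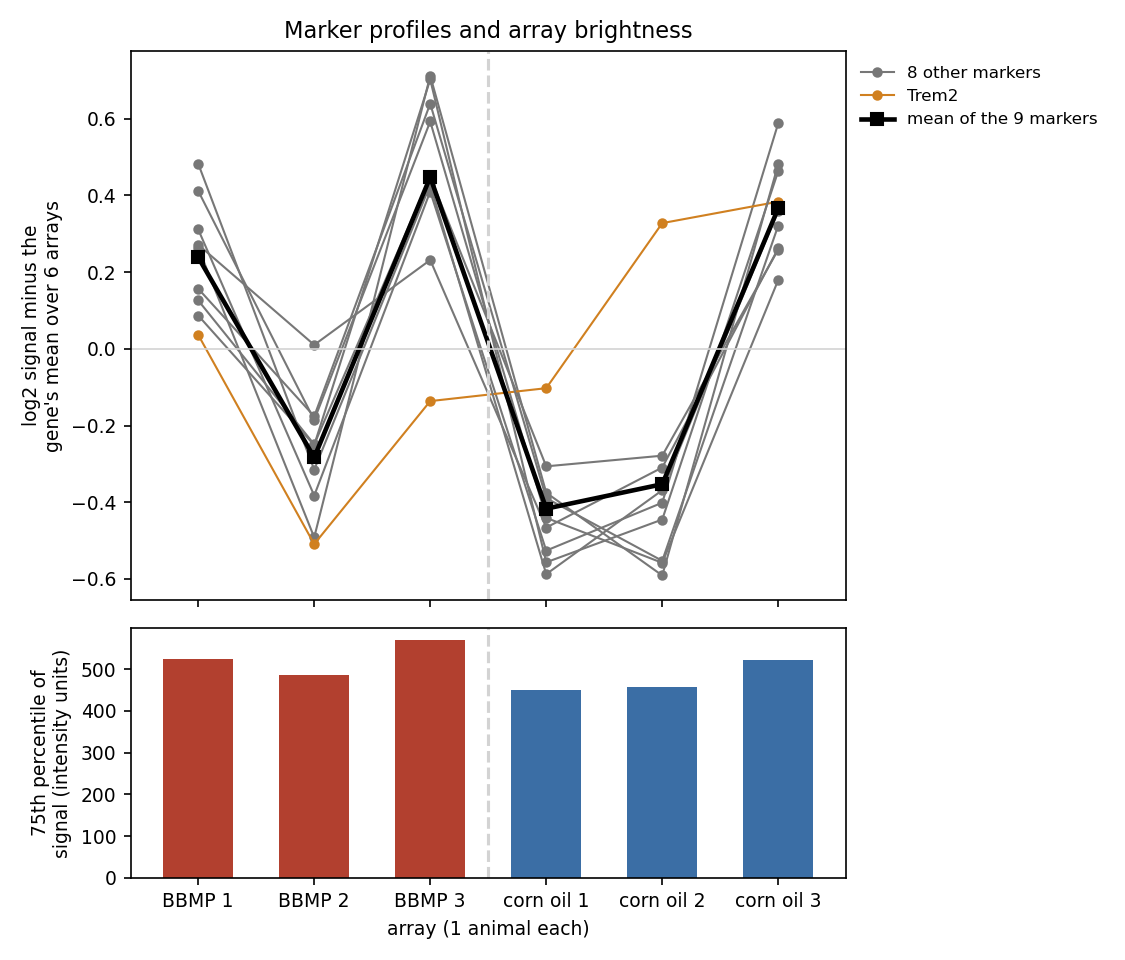
Upper panel: log2 signal of each marker minus its own mean over the 6 arrays (grey, with Trem2 in orange) and the mean of the 9 markers (black), by array, BBMP left of the dashed line and corn oil right. Lower panel: the 75th percentile of signal on each array in intensity units, where BBMP 3, BBMP 1 and corn oil 3 are the 3 highest, as they are in 8 of the 9 marker profiles.

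Likeness between 2 profiles was measured as the root mean square difference between centred log2 values over the 6 arrays, as a description without a test. The nearest pair among the markers was Csf1r and Cd5l at 0.11, followed by Vsig4 with Csf1r and Cd163 with Adgre1, both at 0.12. The farthest pair was Vsig4 and Trem2 at 0.54. Trem2 was at least 0.37 from every other marker, while the nearest neighbour of each other marker lay at a distance of 0.11 to 0.164. The promoters of 1 of these near pairs, Cd163 and Adgre1, and of the farthest pair are shown, as the 250 bases before the gene's start from RefSeq on the build GRCr8, read 5′ to 3′ along the gene. They are Cd163 (chr4:158770524-158770773, strand +), Adgre1 (chr9:2329190-2329439, strand +), Vsig4 (chrX:65179709-65179958, strand -) and Trem2 (chr9:20151780-20152029, strand -). Capitals mark matches to GAGGAA, the core bound by the myeloid factor PU.1, or to its reverse complement TTCCTC.
Cd163: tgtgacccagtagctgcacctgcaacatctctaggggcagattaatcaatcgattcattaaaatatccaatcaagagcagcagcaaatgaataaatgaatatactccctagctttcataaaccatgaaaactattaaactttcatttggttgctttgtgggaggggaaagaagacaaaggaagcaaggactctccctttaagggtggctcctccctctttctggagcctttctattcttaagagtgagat
Adgre1: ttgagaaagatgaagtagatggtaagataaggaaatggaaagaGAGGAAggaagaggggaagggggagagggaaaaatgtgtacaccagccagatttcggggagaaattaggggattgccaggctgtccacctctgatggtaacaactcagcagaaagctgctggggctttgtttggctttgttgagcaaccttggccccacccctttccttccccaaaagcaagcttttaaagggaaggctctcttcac
Vsig4: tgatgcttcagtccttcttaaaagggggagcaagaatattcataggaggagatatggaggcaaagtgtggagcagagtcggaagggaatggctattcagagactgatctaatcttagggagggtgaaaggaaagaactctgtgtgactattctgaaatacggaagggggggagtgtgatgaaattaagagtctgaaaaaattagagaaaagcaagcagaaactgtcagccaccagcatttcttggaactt
Trem2: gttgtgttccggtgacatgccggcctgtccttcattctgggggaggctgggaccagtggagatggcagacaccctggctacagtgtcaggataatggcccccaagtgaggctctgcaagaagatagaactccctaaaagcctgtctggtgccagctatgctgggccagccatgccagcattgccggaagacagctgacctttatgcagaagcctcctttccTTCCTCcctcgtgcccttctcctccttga

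The PU.1 core was found on either strand in the windows of 6 of the 10 markers (Adgre1, Cd5l, Cd68, Csf1r, Marco and Trem2), against 23.3% of 33469 promoter windows of the same length. Adgre1 held it at 207 bases before the start, on the strand of the gene, and Trem2 at 29 bases, on the opposite strand. Csf1r held it at both 229 and 95 bases before the start. The windows of Vsig4, Clec4f and Cd163 did not hold these letters, which says nothing of binding elsewhere. The motif TGCTGAC of the MAF factors, with its reverse complement GTCAGCA, was in 1 of the 10 windows, that of Timd4, against 3.53% of all windows, and it overlapped no PU.1 core. In the near pair shown, Adgre1 held the core and Cd163 did not, and in the far pair Trem2 held it and Vsig4 did not. The nearest pair, Csf1r and Cd5l, was not shown, and both held the core. In the other near pair Csf1r held it and Vsig4 did not.

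Outside the gene lists used here, the 5 named genes nearest to the mean marker profile among 10974 were Adcy4 at a distance of 0.06, Ctla2a and Ccl6 at 0.10 each, and Gins1 and Clec10a at 0.10 each. They were chosen for this nearness, so that they share the marker profile is fixed by the choice. Adcy4, an adenylyl cyclase, had -3.08, -3.60 and -2.78 in BBMP livers, against -3.66, -3.54 and -3.01 in corn oil livers. Gins1, a subunit of a DNA replication complex, had -2.28, -2.58 and -1.79 in BBMP livers, against -2.85, -2.69 and -2.13 in corn oil livers. In both genes BBMP 3 was the highest liver and the groups overlapped. Clec10a, a C-type lectin of macrophages and dendritic cells, had -1.46, -1.79 and -1.01 in BBMP livers, against -1.84, -1.94 and -1.04 in corn oil livers. The chemokine gene Ccl6 had 3.19, 2.59 and 3.49 in BBMP livers, against 2.49, 2.40 and 3.13 in corn oil livers.

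Genes that build or feed the Kupffer cell were read from further lists. None of the genes in the lists below passed limma's adjusted p of 0.05 over all features, where 0.00711% did. At an unadjusted p under 0.05, the share of all features was 10.8%, which is the level for the counts given here. Groups did not overlap for 17.8% of all features, which is the level for the genes described below as without overlap. Of the signals that support the cells, 2 of 10 tested genes had a higher mean after BBMP and 8 a lower one, with a median of -0.16. An unadjusted p under 0.05 was found for 4 of the 10, against 10.8% of all features, and these did not all differ one way: Il34, Csf1 and Notch1 were lower and Bmp6 higher. Bmp6 (0.97 ± 0.36, limma adjusted p = 0.435), named with Notch1 after the values were seen, was well above background on 3 BBMP arrays and 1 corn oil array, so it was tested only because of the group where it was high. Il34 and Csf1 are the ligands of CSF1R. Il34 read 1.51, 1.47 and 1.19 in BBMP livers, against 1.98, 2.16 and 1.71 in corn oil livers, without overlap. Its difference was -0.56 ± 0.15 (SE; limma adjusted p = 0.401). Csf1 read -0.81, -1.12 and -0.52 in BBMP livers, against 0.08, 0.04 and -0.61 in corn oil livers, and differed by -0.65 ± 0.24 (limma adjusted p = 0.435). BBMP 3 lay above corn oil 3, so the Csf1 groups overlapped. The receptor, by its brightest probe, and its ligands therefore differed in opposite directions on the group means, none past the threshold, and this contrast was not tested as such.

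Transcription factors of macrophage identity showed 4 of 8 tested genes higher and 4 lower, with a median of 0.07. An unadjusted p under 0.05 was found for 2 of the 8, Maf (higher) and Id3 (lower), against 10.8% of all features. The groups did not overlap for 2 of the 8, Maf (higher) and Zeb2 (lower), against 17.8% of all features. Zeb2, named after its values were seen, differed by -0.33 ± 0.14 (limma adjusted p = 0.466). Maf stood at -0.59, -0.54 and -0.62 in BBMP livers, against -0.92, -0.88 and -0.95 in corn oil livers, with no overlap and little spread (0.33 ± 0.09, limma adjusted p = 0.393). Id3, which in mice is needed for Kupffer cell development, stood at 2.42, 1.95 and 2.71 in BBMP livers, against 2.69, 3.71 and 3.45 in corn oil livers (-0.92 ± 0.31, limma adjusted p = 0.417). Spi1, which encodes PU.1 and is named here after its values were seen, stood at -2.41, -2.80 and -2.11 in BBMP livers, against -2.72, -2.54 and -2.58 in corn oil livers. In this list 0 of 8 genes had BBMP 1, BBMP 3 and corn oil 3 as the 3 highest livers, against 4.18% of all features. With 8 genes, a count of 0 is near that share. The mean centred level of the list was 0.03, 0.05 and -0.06 in BBMP 1, 2 and 3, against -0.03, 0.03 and -0.02 in corn oil 1, 2 and 3. Both Maf and Id3 are also expressed in other cells of the liver.

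The list of complement and Fc receptor genes carried the profile furthest, with 7 of 13 genes showing those 3 livers on top, against 4.18% of all features. In that list 9 genes were higher and 4 lower after BBMP, with a median of 0.11 and 0 at an unadjusted p under 0.05. The C1q chains, which in liver come from macrophages, were picked out after their values were seen. C1qa read 4.29, 3.73 and 4.60 in BBMP livers, against 3.64, 3.68 and 4.33 in corn oil livers (0.33 ± 0.28, limma adjusted p = 0.698). C1qb read 5.81, 5.40 and 5.98 in BBMP livers, against 5.25, 5.35 and 5.82 in corn oil livers (0.26 ± 0.21, limma adjusted p = 0.682). As with the markers, BBMP 2 sat beside corn oil 1 and corn oil 2. The genes with the smallest p in the list were C3, the opsonin whose fragments VSIG4 binds (-0.20 ± 0.09, limma adjusted p = 0.481), and the properdin gene Cfp (0.40 ± 0.30, limma adjusted p = 0.653). C3 is made mainly by hepatocytes, and its groups did not overlap, at 9.61, 9.71 and 9.57 in BBMP livers, against 9.81, 9.86 and 9.82 in corn oil livers.

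Among genes of TREM2 signalling and lipid handling, 4 of 13 tested genes were higher and 9 lower after BBMP, with a median of -0.13. An unadjusted p under 0.05 was found for 1 of the 13, near the share of 10.8% over all features. Fabp5, a fatty acid binding protein, read 2.79, 2.40 and 2.08 in BBMP livers, against 3.25, 3.07 and 3.79 in corn oil livers, without overlap (-0.95 ± 0.25, limma adjusted p = 0.395). The lysosomal protease Ctsb differed by -0.18 ± 0.09 (limma adjusted p = 0.499). Tyrobp, the TREM2 adaptor, named after its values were seen, did not share the pattern of Trem2: it read 4.05, 3.70 and 4.52 in BBMP livers, against 3.74, 3.84 and 4.22 in corn oil livers. For scavenger, efferocytosis and iron genes, 6 of 13 were higher and 7 lower, with a median of -0.02. Both in this list and in that of TREM2 signalling and lipid handling, 4 of 13 genes had BBMP 1, BBMP 3 and corn oil 3 on top. The share over all features was 4.18%. Slc11a1, a metal transporter of phagosomes, differed by 0.55 ± 0.30 (limma adjusted p = 0.546) and Gas6, the bridging ligand of the MERTK receptor family, by -0.75 ± 0.29 (limma adjusted p = 0.450).

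General myeloid genes were higher in 8 and lower in 5 of 13 cases, with a median of 0.05. Their mean centred level was -0.11, -0.32 and 0.41 in BBMP 1, 2 and 3, against -0.15, 0.01 and 0.16 in corn oil 1, 2 and 3. On this mean BBMP 1 was low and not high as in the markers. Still, 4 of the 13 genes had BBMP 1, BBMP 3 and corn oil 3 as the 3 highest livers, against 4.18% of all features. Of this list Mpeg1, a pore-forming protein of phagocytes, differed by -0.55 ± 0.27 (limma adjusted p = 0.503) and the actin regulator Coro1a by -0.33 ± 0.25 (limma adjusted p = 0.654). Of the markers of recruited monocytes, 7 of 12 genes with a probe could be tested, while genes such as Ccr2, Itgam and Vcan did not pass the filter on dim probes. Of the 7, 3 were higher and 4 lower, with Cx3cr1, the fractalkine receptor, at 0.54 ± 0.22 (limma adjusted p = 0.462) and S100a8 at -0.69 ± 0.45 (limma adjusted p = 0.601).

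Inflammatory products were lower on average in 8 of 10 tested genes, with a median of -0.35. Il6, Il10, Ccl7, Cxcl2 and Ptgs2 did not pass the filter on dim probes. An unadjusted p under 0.05 was found for 3 of the 10, against 10.8% of all features: Cxcl1 was lower, while Arg1 and Il18 were higher. In the same 3 genes the groups did not overlap, against 17.8% of all features. The chemokine Cxcl1 read -1.30, -0.91 and -0.95 in BBMP livers, against 1.61, 0.53 and 0.08 in corn oil livers, without overlap, and differed by -1.79 ± 0.38 (limma adjusted p = 0.352). Arg1, which in liver is above all the urea cycle enzyme of hepatocytes, differed by 0.36 ± 0.12 (limma adjusted p = 0.424). Il18, an interleukin of the IL1 family named after its values were seen, read 0.85, 0.75 and 0.88 in BBMP livers, against 0.27, 0.20 and 0.74 in corn oil livers, without overlap (0.43 ± 0.16, limma adjusted p = 0.439). The list did not follow the markers over the animals: its mean centred level was -0.62, -0.57 and 0.30 in BBMP 1, 2 and 3, against 0.37, 0.42 and 0.09 in corn oil 1, 2 and 3. Cxcl1 is made by several cell types of the liver, so its value is not a measure of the Kupffer cells alone.

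Markers of other cells were read for the same animals. Endothelial markers, which line the same sinusoids, were higher in 6 of 7 tested genes with a median of 0.14, and their summed linear signal was 41.3 to 47.0 times the array's 75th percentile in BBMP livers, against 37.8 to 46.3 in corn oil livers. Kdr, named after its values were seen, was by far the brightest of the 7 and makes up most of this sum. It differed by 0.05 ± 0.11 (limma adjusted p = 0.898). Lyve1 differed by 0.56 ± 0.24 (limma adjusted p = 0.465) and Tie1 by 0.50 ± 0.29 (limma adjusted p = 0.563). The mean centred endothelial level was 0.21, 0.03 and 0.11 in BBMP 1, 2 and 3, against -0.18, -0.25 and 0.08 in corn oil 1, 2 and 3. On this mean BBMP 1, BBMP 3 and corn oil 3 were the highest livers, as in the markers. Stellate cell markers were lower in 7 of 10 genes with a median of -0.20, summed at 39.0 to 45.3 in BBMP livers, against 47.3 to 52.4 in corn oil livers. The brightest of the 10, Col3a1 and Col1a2, named after their values were seen, make up most of this sum. Of these 10 genes 3 had an unadjusted p under 0.05, against 10.8% of all features, and 4 had groups that did not overlap, against 17.8%. The 4 did not all differ one way: Lrat, Pdgfrb and Reln were lower, while Des was higher (0.18 ± 0.10, limma adjusted p = 0.548). Reln and Des are named after their values were seen. Lrat, which esterifies retinol for storage, read 1.88, 1.81 and 1.83 in BBMP livers, against 2.48, 2.45 and 2.05 in corn oil livers, a difference of -0.49 ± 0.14 (limma adjusted p = 0.406). Pdgfrb, a growth factor receptor, differed by -0.53 ± 0.16 (limma adjusted p = 0.406), also without overlap. The T and NK cell markers were lower in 7 of 10 genes with a median of -0.14. The profile of BBMP 1, BBMP 3 and corn oil 3 on top was found in 2 of 7 endothelial, 1 of 10 T and NK cell, 0 of 10 stellate, 0 of 5 cholangiocyte and 0 of 8 hepatocyte genes. The share over all features was 4.18%, and in lists this short a count of 0 is near it. For neutrophils only S100a8 and S100a9 could be tested, both highest in corn oil 2, while Elane, Csf3r, Cxcr2, Ngp, Mmp8 and Mmp9 did not pass the filter on dim probes. The 3 B and plasma cell genes tested were all lower on average, with a median of -0.50. The part of any of these cell types in the marker differences was not tested.

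**Figure D4:**
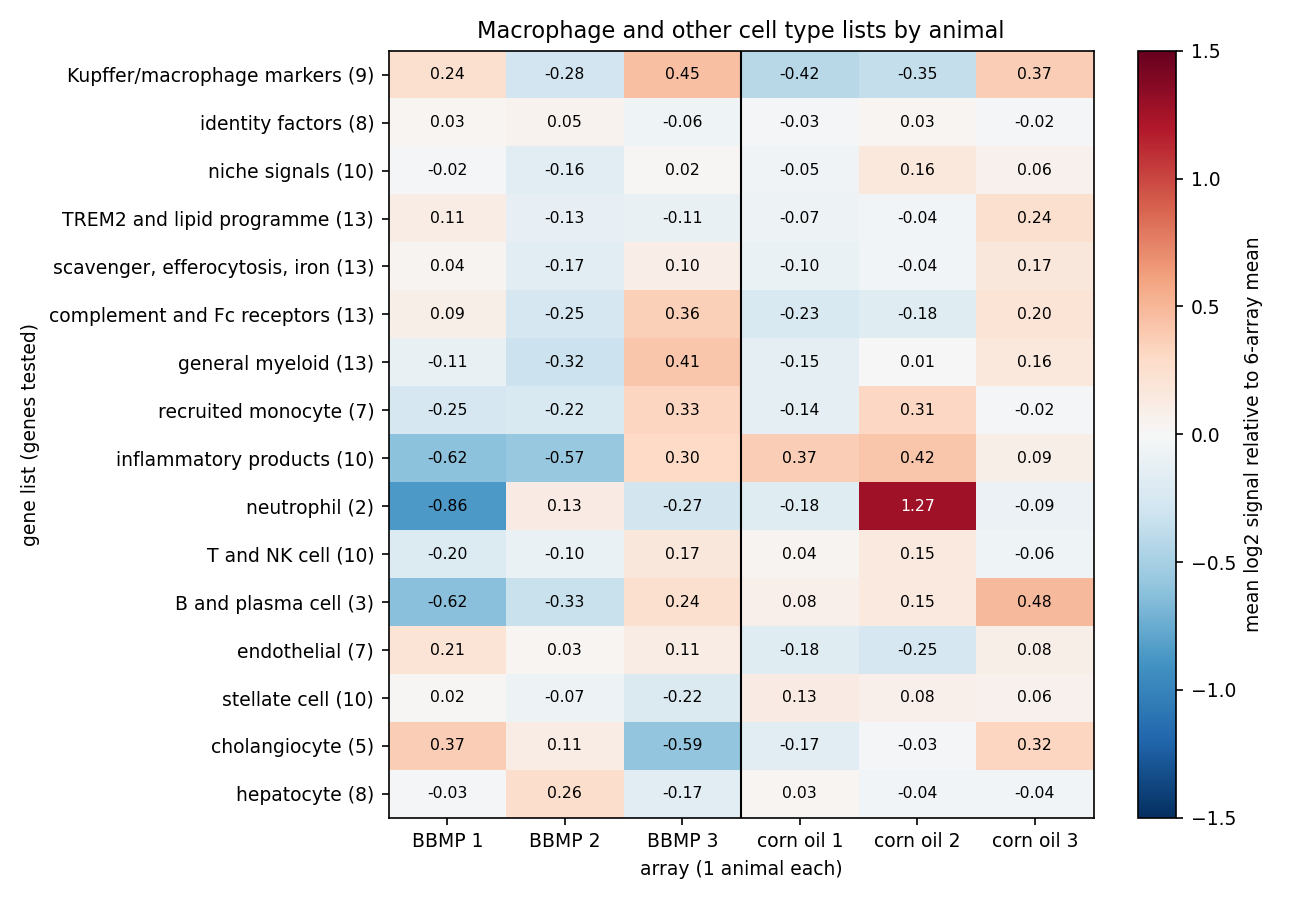
Mean over each gene list of log2 signal minus the gene's own mean over the 6 arrays, by array, BBMP left of the black line and corn oil right; colour and number give the same value, and the number of tested genes stands in parentheses. The marker row runs 0.24, -0.28 and 0.45 in BBMP livers, against -0.42, -0.35 and 0.37 in corn oil livers. BBMP 1, BBMP 3 and corn oil 3 are also highest in the complement and Fc receptor, the scavenger, efferocytosis and iron, and the endothelial rows.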

How the data were processed

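In the deposited scanner files the processed signal of a spot is a linear intensity, background-subtracted and spatially detrended by Feature Extraction 10.7.1.1 on array design 035170, build rn4, per the file headers, and not normalised between arrays. The value table the authors deposited holds the same intensity divided by 1 constant per array (column medians 0.0965 to 0.0998), and that step is not given in the sources used here. The constants, 449.4 on corn oil 1 to 567.9 on BBMP 3, lay close to the 75th percentiles of those arrays, 450.1 and 570.4. Its scale is thus linear, without centring of probes.

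Control spots (1319), 84 spike-in probes and outlier-flagged spots were left out. Probes were named through RefSeq's GRCr8 gene table, by accession without version (27460 of 61573). The log2 signal minus the log2 of the array's 75th percentile was analysed. A feature was tested if well above background on all 3 arrays of a group, represented by its brightest such probe. limma 3.58.1 (R 4.3.3; lmFit, eBayes, no covariate, two-sided, Benjamini-Hochberg over 28111 features) gave differences, SE and p, and was tested on simulated data. Summaries used Python 3.11.15 and pandas 2.3.3. The number of arrays limits the precision.

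Besides the markers, the text names up to 2 genes with the smallest p per list and the 5 genes nearest in profile. The members and lists were chosen with earlier results of these data known.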

Additional observations from a re-analysis of the deposited data

How the results depend on the processing

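Over 16 alternative settings, all planned, each of the 9 markers kept the sign of its difference and 0 of 144 values passed the threshold (limma adjusted p 0.368 to 0.989). Part of these signs were fixed in advance. Without a filter, with a filter on all 6 arrays and with every probe as its own row, the differences were the same by construction. So were those with another variance moderation in limma. The deposited value table has nearly the same scaling as the main fit. With every probe as its own row, only the brightest probe of Csf1r was counted, and its other probe gave -0.03. The number of markers with a higher mean stayed at 8 and the number past the threshold at 0. The median difference was 0.27 with normexp, 0.33 with quantile and 0.36 with median scaling, and 0.10 to 0.64 when 1 array was left out. Some single values moved by more than 1.5 times: with normexp Cd68 gave 0.07, Cd163 0.13, Marco 0.17 and Trem2 -0.19, and with the mean of a gene's probes Cd163 gave 0.48 and Csf1r 0.19. Without BBMP 3, Marco gave 0.05, Cd68 0.05, Cd163 0.08, Cd5l 0.10 and Csf1r 0.20. Without corn oil 1, Cd163 gave 0.02, Cd68 0.12, Cd5l 0.17, Clec4f 0.19 and Adgre1 0.20. Without corn oil 2, Cd163 gave 0.08, Marco 0.11, Cd68 0.13, Cd5l 0.23 and Csf1r 0.24. Without BBMP 1, Cd163 gave 0.13 and Adgre1 0.26. Without corn oil 3 the differences of the 8 higher markers were larger, up to 0.77 for Vsig4 and 0.68 for Cd5l, Csf1r and Adgre1. They were also larger without BBMP 2, up to 0.78 for Vsig4. Leaving out 1 array at a time, Marco ranged from 0.05 to 0.65 and Trem2 from -0.56 to -0.25. The number of features past the threshold was 2, and was 0 with normexp, 0 with a filter on all 6 arrays, 1 without a filter, and 0 to 4 when 1 array was left out (4 without corn oil 2, 0 without corn oil 3); counts at an unadjusted p under 0.05 were 3279 with normexp, 2835 with the stricter filter, 3308 without a filter, 1934 without corn oil 2 and 3002 without corn oil 3, and the cause was not tested. With the replicate block it was 0 (3235 unadjusted), the markers' differences were the same by construction and none passed; deviations of animals that share a number correlated at only 0.089, 0.016 and 0.072, so the numbers are not taken to pair them. Signal over background limits Trem2 and the dimmest Cd163 probe.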
